A study of Homo sapiens with 10 samples.

Results

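The levels of 10 genes of the antioxidant defense were followed, namely NFE2L2, NQO1, TXNRD1, SOD1, SOD2, CAT, GPX1, GPX4, PRDX3 and TXN2. They were chosen by symbol, as the regulator NRF2 and enzymes that remove superoxide and peroxides or keep thioredoxin and quinones reduced, and each symbol was matched to its Ensembl identifier through GENCODE 29. All 10 were found among the 52526 identifiers of the count files that carry a GENCODE 29 name, and all 10 were among the 16756 genes that passed the filter on low counts and were tested.

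RNA was sequenced from lines of RS4;11, an established cell line of acute lymphoblastic leukemia of B-cell precursors (BCP-ALL) that is sensitive to venetoclax (VEN), an inhibitor of the anti-apoptotic protein BCL-2. The 5 VENins lines had been made insensitive by stepwise raised VEN and were kept in it, and VEN was washed out before the cells were analyzed. The 5 VENsens lines were grown alongside with the solvent DMSO and without VEN. All 10 lines descend from the same parental culture, and each gave 1 library, so that the spread within a group is the spread between separately kept lines of 1 cell line. The libraries held 38491516 to 52960365 reads, of which 20631907 to 28323643 were counted on genes. A share of 24.6% to 26.2% of the reads per library was left out for low alignment quality. How many of these came from the members or their near-identical copies was not tested. Values are CPM, counts relative to library size, after TMM scaling, which corrects library sizes for differences in composition. The markers of the labelled cell type were present, with all 12 B-cell precursor genes examined at a mean of at least 1 CPM. Over all 10 libraries IGLL1 was the most abundant of them at 723 CPM. In VENsens lines PAX5 was above IGLL1, at 783 against 681 CPM, and in VENins lines below it, at 631 against 766 CPM. PAX5 had a log2 fold change of -0.31 in VENins against VENsens lines (adjusted p = 0.0272, edgeR's quasi-likelihood test). DNTT ranged from 1.08 to 27.3 CPM over the libraries and BLNK from 1.18 to 9.55 CPM. The defining T-cell genes CD3D, CD3E, CD3G and CD2 were each below a mean of 1 CPM. Genes of erythroid cells, of monocytes and granulocytes, and of fibroblasts and epithelium were examined as well. Of these only ITGAM, at 4.55 CPM, and COL1A1, at 2.72 CPM, reached a mean of 1 CPM.

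Reactive oxygen species arise mainly where electrons leak from the respiratory chain. Superoxide dismutases turn superoxide into hydrogen peroxide, which catalase, glutathione peroxidases and peroxiredoxins remove. The thioredoxin and glutathione systems restore the glutathione peroxidases and peroxiredoxins with electrons from NADPH. The transcription factor NRF2, held at low levels by KEAP1 and the CUL3 ubiquitin ligase, binds antioxidant response elements in the promoters of many of these genes when cells meet oxidants or electrophiles.

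In 3 of the proteins, TXNRD1, GPX1 and GPX4, the catalytic center carries selenocysteine, which is read from a TGA codon that otherwise stops translation. The coding stretches around this codon are shown, from the GENCODE 29 transcripts (GRCh38), because they are the feature that sets these enzymes apart from the other members; capitals mark the selenocysteine codon.

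TXNRD1: ctccaggctggctgcTGAggt
GPX1: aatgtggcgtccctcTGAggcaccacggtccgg
GPX4: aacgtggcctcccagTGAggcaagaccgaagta

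In GPX1 the codon lies at chr3:49358132-49358134 on the minus strand and is number 49 of 203, and in GPX4 it lies at chr19:1105403-1105405 on the plus strand and is number 73 of 197. In TXNRD1 it lies at chr12:104348413-104348415 on the plus strand and is number 550 of 551, so that a single codon follows it before the stop. Reading it as selenocysteine requires dedicated proteins, whose genes are described with the other pathway genes.

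Promoters were searched for the core of the antioxidant response element, TGACNNNGC, on both strands, in the RefSeq table (GRCh38.p14) of 250 bases before to 50 bases after each gene start. The core was found in 4687 of all 35116 promoters (13.3%). Of the 10 genes, 8 had entries in the table, with 15 promoters in all, and 2 of these promoters held the core, both of TXNRD1. SOD1 and TXN2 had no entry. The stretches around the core are printed for TXNRD1 and for the tested NRF2 target genes with a match that ends ahead of the start, GCLM, PGD and EPHX1, to show where the shared letters stand; capitals mark the core, which is read on the reverse strand where the capitals end in GTCA.

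TXNRD1, upstream start: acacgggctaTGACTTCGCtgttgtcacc
TXNRD1, downstream start: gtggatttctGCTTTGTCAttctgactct
GCLM: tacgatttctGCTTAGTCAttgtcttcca
PGD: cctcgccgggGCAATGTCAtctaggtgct
EPHX1: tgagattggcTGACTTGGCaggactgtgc

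The upstream TXNRD1 promoter holds another match, GCTCCGTCA, which reaches the start itself. The stretches above lie at chr12:104215670-104215698 and chr12:104286920-104286948 (plus strand) for TXNRD1, at chr1:93909446-93909474 (minus strand) for GCLM, at chr1:10398853-10398881 (plus strand) for PGD and at chr1:225825266-225825294 (plus strand) for EPHX1. Among the tested pathway genes other than the members, 25 had a promoter with the core, and 15 of them had a log2 fold change above 0 in VENins against VENsens lines, with a median of 0.03. Without the core the numbers were 32 of 55, with a median of 0.02. A match is a description of the letters and not of binding.

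None of the 10 genes passed an adjusted p of 0.05 in edgeR's quasi-likelihood test of VENins against VENsens lines, whereas 33 of the 16756 tested genes did (0.197%). At an unadjusted p under 0.05 there were 2 members, SOD1 and NQO1, against 16.2% of all tested genes. DESeq2 with the line number included also called 0 of the members, beside 217 of all tested genes, 3899 of which it gave no adjusted p, and DESeq2 without it called 1, SOD1, beside 739 of all tested genes, 4550 of which it gave no adjusted p. The log2 fold change was above 0 for 9 members and below 0 for TXNRD1 alone, beside 8558 of 16756 tested genes above 0, and the median over the members was 0.08 beside 0.003 over all tested genes. Of these 9, CAT was below 0 without the lines numbered 3 or 5, and TXN2 without VENins line 5 in the model without line number.

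NFE2L2 (ENSG00000116044, chromosome 2), which encodes NRF2, was measured at 86.8, 94.0, 97.1, 98.0 and 94.9 CPM in VENsens lines 1 to 5 and at 103, 101, 98.7, 97.2 and 88.0 CPM in VENins lines 1 to 5. The groups overlapped, with the lowest value of each in VENsens line 1 and VENins line 5. The log2 fold change was 0.05 ± 0.06 (SE), with a 95% interval from -0.08 to 0.18 (adjusted p = 0.722, edgeR's quasi-likelihood test), and 4 of 5 VENins lines were above the VENsens median. It was 0.0032 without the lines numbered 1 and 0.09 without those numbered 5. In GENCODE 29, 1054 of the 5979 exonic bases of NFE2L2 are shared with another gene on the same strand, AC019080.1, and it also overlaps antisense exons of AC079305.1 (190 bases) and AGPS (54 bases). HTSeq counts reads on more than 1 gene for neither and lists them as ambiguous, 3.69% to 3.98% of reads per library, and how many of these lay on NFE2L2 was not tested.

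NQO1 (ENSG00000181019, chromosome 16) encodes a quinone reductase and is among the most widely used readouts of NRF2. It was the least abundant member, at 4.82, 5.38, 5.92, 5.50 and 5.58 CPM in VENsens lines 1 to 5 and 7.05, 6.78, 6.79, 5.89 and 6.10 CPM in VENins lines 1 to 5, from 111 to 168 counts per library. In 4 of 5 VENins lines the level was above every VENsens line, and VENins line 4 was just inside the VENsens range. The log2 fold change of 0.26 ± 0.11 (SE; 95% interval 0.03 to 0.49) was the largest among the members and did not pass the adjusted threshold (adjusted p = 0.249, edgeR's quasi-likelihood test). NQO1 shares 575 of its 3254 exonic bases with the antisense gene AC092115.2. The library kit named in the labels does not keep the strand, so the gene of origin of reads in these bases is not known. Whether they were counted on NQO1 or listed as ambiguous depends on the strand setting of HTSeq, which is not stated.

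TXNRD1 (ENSG00000198431, chromosome 12), the cytosolic thioredoxin reductase and an NRF2 target, was measured at 254, 262, 259.8, 267 and 285 CPM in VENsens lines 1 to 5 and at 264, 258, 257, 261 and 250.1 CPM in VENins lines 1 to 5. Its VENins values lay close together and 1 of 5 was above the VENsens median. For TXNRD1 the log2 fold change was -0.04 ± 0.05 (SE), with a 95% interval from -0.15 to 0.07 (adjusted p = 0.761, edgeR's quasi-likelihood test). It was -0.064 without the lines numbered 1 and -0.0026 without those numbered 5. TXNRD1 had the core motif at 2 promoters, and NQO1 had none in the window searched. Neither estimate passed the adjusted threshold, and the interval of TXNRD1 includes 0. Whether the motif bears on these estimates was not tested.

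SOD1 (ENSG00000142168, chromosome 21), the copper-zinc superoxide dismutase of the cytosol and the mitochondrial intermembrane space, was measured at 233, 217, 233, 224 and 231 CPM in VENsens lines 1 to 5 and at 243, 275, 252, 250.0 and 252 CPM in VENins lines 1 to 5. All 5 VENins lines were above all 5 VENsens lines, and VENins line 2 was the highest. This was the only one of the 10 members whose groups did not overlap, which was the case for 4.66% of all tested genes. SOD1 rested on 4487 to 6721 counts per library.

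Mean SOD1 was 228 ± 6.82 CPM (SD, n = 5) in VENsens and 254 ± 11.9 CPM (SD, n = 5) in VENins lines. For SOD1 the log2 fold change was 0.16 ± 0.05 (SE), with a 95% interval from 0.05 to 0.27, and the adjusted p was 0.175 in edgeR's quasi-likelihood test. With DESeq2 and no term for the line number the adjusted p was 0.0125, the only call of a member, and over the other fits it went up to 0.594. In bulk RNA a change per cell and a change in the share of cells that express a gene cannot be told apart.

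SOD2 (ENSG00000112096, chromosome 6), the manganese superoxide dismutase of the mitochondrial matrix, was measured at 123, 139, 129, 136 and 136 CPM in VENsens lines 1 to 5 and at 155, 146, 139, 131 and 126 CPM in VENins lines 1 to 5. VENins lines 1 and 2 were above every VENsens line, while VENins line 5 was near the lowest VENsens line. For SOD2 the log2 fold change was 0.07 ± 0.06 (SE; adjusted p = 0.651, edgeR's quasi-likelihood test). It was 0.00075 without the lines numbered 1 and 0.16 with the length and GC trend of each library taken out, and the adjusted p over all alternatives ran from 0.0618 to 0.997. Antisense exons of WTAP overlap 298 of its exonic bases, and 845 are shared with another gene of the name SOD2 in GENCODE 29 that the count files do not list.

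CAT (ENSG00000121691, chromosome 11), the peroxisomal catalase, was measured at 111, 116, 101, 108 and 107 CPM in VENsens lines 1 to 5 and at 108, 106, 113, 109 and 117 CPM in VENins lines 1 to 5. The groups covered nearly the same range, with the highest value in VENins line 5. Its log2 fold change was 0.02 ± 0.06 (SE; adjusted p = 0.877, edgeR's quasi-likelihood test) and was -0.01 without the pair of lines numbered 3 and -0.00040 without the pair numbered 5.

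GPX1 (ENSG00000233276, chromosome 3), the cytosolic and mitochondrial glutathione peroxidase, was measured at 221, 199, 221, 223 and 223 CPM in VENsens lines 1 to 5 and at 219.8, 228, 214, 219 and 275 CPM in VENins lines 1 to 5. VENsens line 2 was low and VENins line 5 was high, and the other 8 lines lay between 214 and 228 CPM. The estimated log2 fold change of 0.08 ± 0.06 (SE; adjusted p = 0.520, edgeR's quasi-likelihood test) was 0.03 without the lines numbered 5. Without VENins line 5 alone, in the model without line number, it was 0.017. The processed pseudogene GPX1P1, which is 97.2% identical to the GPX1 transcript over 612 aligned positions with a longest shared run of 148 bases, held 16.0% as many counts as GPX1. The level of GPX1 is therefore uncertain by the reads that could belong to either.

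GPX4 (ENSG00000167468, chromosome 19), which reduces lipid hydroperoxides in membranes and protects cells from ferroptosis, was measured at 85.9, 67.6, 75.8, 75.4 and 72.4 CPM in VENsens lines 1 to 5 and at 75.5, 84.6, 75.2, 81.0 and 97.0 CPM in VENins lines 1 to 5. As for GPX1, VENsens line 2 was the lowest and VENins line 5 the highest. For GPX4 the log2 fold change was 0.13 ± 0.08 (SE), with a 95% interval from -0.03 to 0.29 (adjusted p = 0.428, edgeR's quasi-likelihood test). It was 0.21 without the lines numbered 1, 0.08 without those numbered 2 and 0.06 without those numbered 5, and 0.07 without VENins line 5 alone in the model without line number.

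PRDX3 (ENSG00000165672, chromosome 10), the peroxiredoxin of the mitochondrial matrix, was measured at 251, 264, 277, 272 and 282 CPM in VENsens lines 1 to 5 and at 284, 296, 288, 295 and 275 CPM in VENins lines 1 to 5. In 4 of 5 VENins lines it was above every VENsens line, and VENins line 5 was inside the VENsens range. For PRDX3 the log2 fold change was 0.10 ± 0.05 (SE), with a 95% interval from -0.01 to 0.21 (adjusted p = 0.380, edgeR's quasi-likelihood test). Its pseudogene PRDX3P1, 92.7% identical over the aligned positions, held 5.28% as many counts.

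TXN2 (ENSG00000100348, chromosome 22), the mitochondrial thioredoxin that reduces PRDX3, was measured at 115, 97.6, 114, 111 and 109.7 CPM in VENsens lines 1 to 5 and at 107, 109, 112, 111 and 127 CPM in VENins lines 1 to 5. VENsens line 2 was again the lowest and VENins line 5 the highest, and the other lines were mixed. For TXN2 the log2 fold change was 0.04 ± 0.06 (SE; adjusted p = 0.770, edgeR's quasi-likelihood test) and depended on several lines. It was 0.08 without the lines numbered 1, 0.015 without those numbered 2 and 0.0032 without those numbered 5, and in the model without line number 0.0050 without VENsens line 2 and -0.0013 without VENins line 5.

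**Figure D1:**
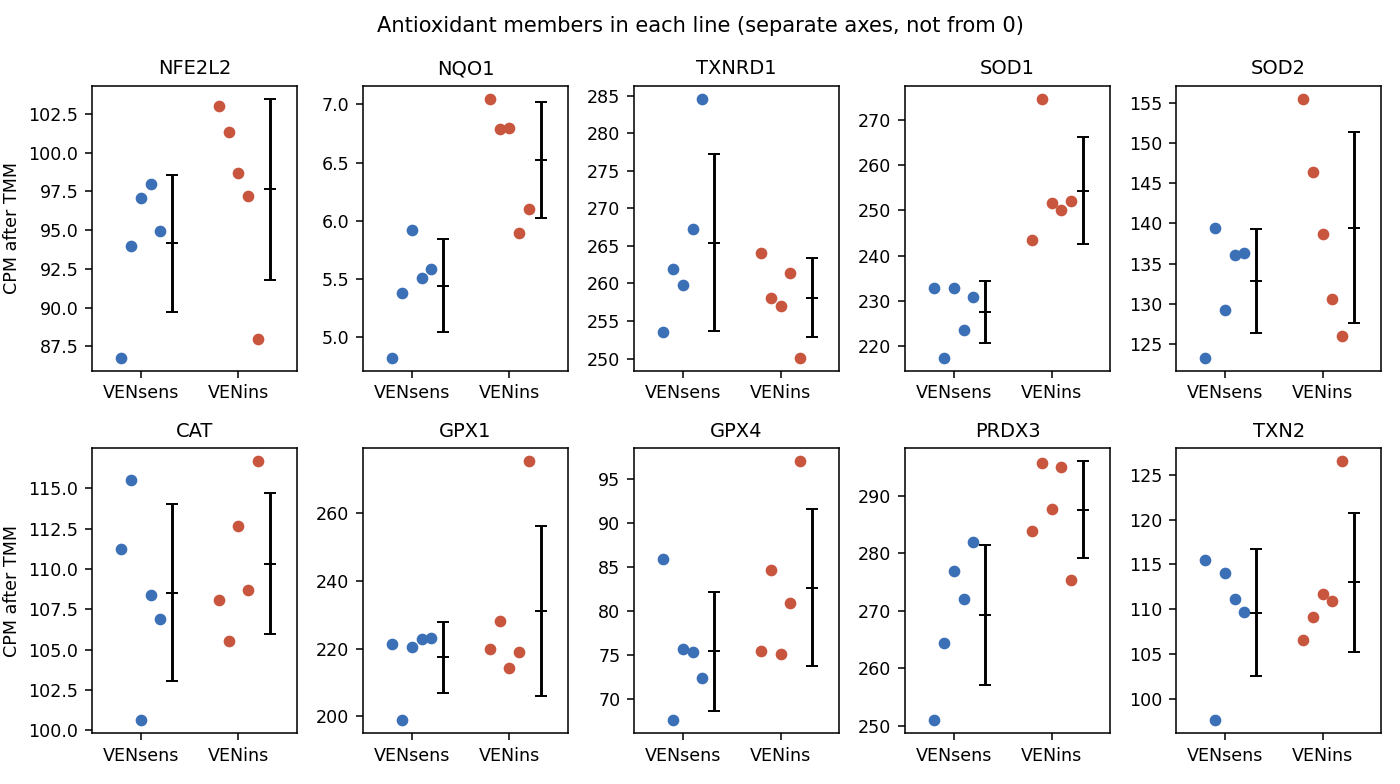
CPM after TMM of the 10 genes in each line, with VENsens lines in blue and VENins lines in red in the order of their numbers, and the mean with SD of each group of 5 in black. The axes differ between panels and do not start at 0; the groups are separate for SOD1 alone, and VENins line 5 is the highest of all lines in GPX1, GPX4, TXN2 and CAT.

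**Figure D2:**
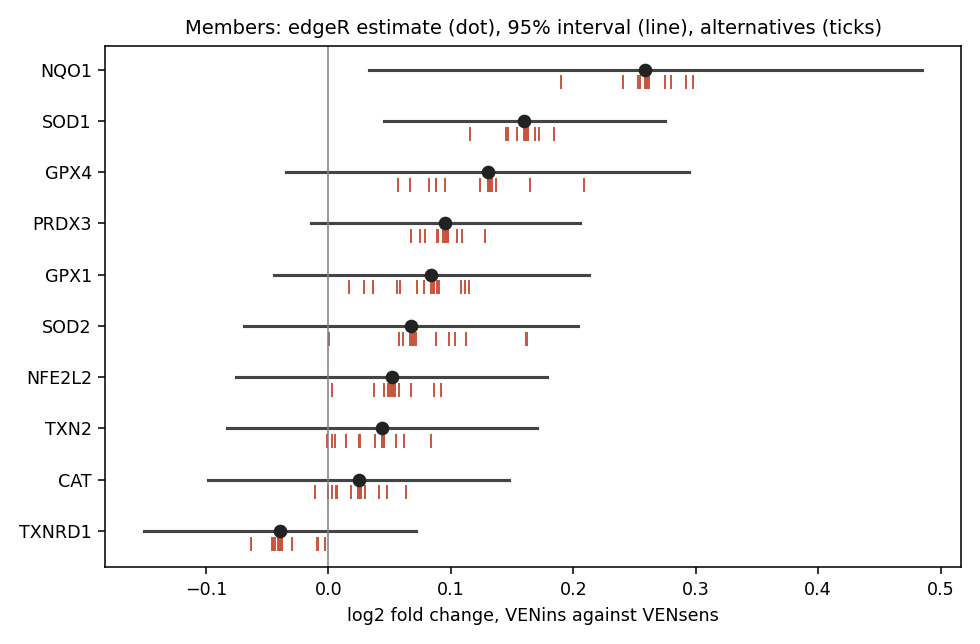
Log2 fold change of VENins against VENsens lines for each gene in edgeR's fit (dot) with its 95% interval (line), and its estimates under the alternative settings (ticks). The intervals of NQO1 and SOD1 lie above 0, from 0.03 and 0.05, and the other 8 include 0.

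Levels of different genes were compared as CPM per kilobase of exon. In VENsens lines GPX1 was highest at 152 ± 7.31 CPM per kilobase (SD, n = 5), followed by SOD1 at 113 ± 3.38, PRDX3 at 78.8 ± 3.54 and TXN2 at 53.5 ± 3.46. TXNRD1 at 39.6 ± 1.76 and GPX4 at 37.4 ± 3.32 CPM per kilobase did not differ beyond their spread. CAT stood at 30.2 ± 1.53, NFE2L2 at 15.7 ± 0.740, SOD2 at 8.05 ± 0.395 and NQO1 at 1.67 ± 0.122 CPM per kilobase.

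The place of SOD2 in this order depended on the length used, and which of its transcripts the reads came from was not tested. Its exons cover 16493 bases, mostly through 1 transcript of 14266 bases, whereas the median of its 6 basic coding transcripts is 990.5 bases. With the median coding length in place of all exons, a comparison chosen after the values were seen, SOD2 stood at 134 CPM per kilobase, below only SOD1 at 248, GPX1 at 214 and PRDX3 at 169. NQO1 was the lowest under all 3 definitions of length.

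**Figure D3:**
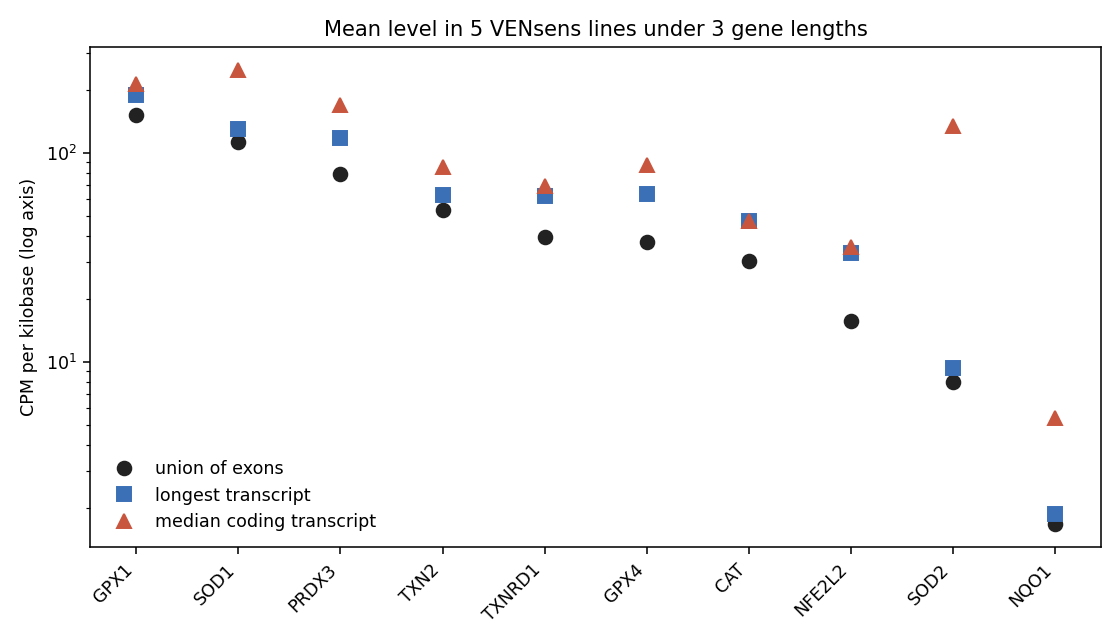
Mean level of each gene in the 5 VENsens lines as CPM per kilobase on a log axis, with gene length taken as all exons, the longest transcript or the median coding transcript. SOD2 moves from 8.05 to 134 CPM per kilobase between the first and the last, and NQO1 is the lowest throughout.

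Levels of the members were compared with each other within the groups. Over the 10 libraries, with the group means taken out, log2 CPM of GPX1 and TXN2 had a Pearson r of 0.86 (Spearman's rho 0.78), GPX4 and TXN2 one of 0.84 (rho 0.75) and GPX1 and GPX4 one of 0.83 (rho 0.71). A second group was formed by NFE2L2, SOD2 and NQO1, with r of 0.80 for NFE2L2 and SOD2 (rho 0.76), 0.79 for NFE2L2 and NQO1 (rho 0.77) and 0.72 for NQO1 and SOD2 (rho 0.55). PRDX3 had an r of 0.72 with NFE2L2 (rho 0.43) and of 0.72 with TXNRD1 (rho 0.59). Between GPX1, GPX4 or TXN2 and NFE2L2, SOD2 or NQO1 r was negative, down to -0.77 for SOD2 and TXN2. Without the 2 libraries in which the deviation of the first-named gene lay farthest from its median, r was 0.64 for GPX1 and TXN2, 0.65 for GPX4 and TXN2, 0.61 for GPX1 and GPX4, 0.59 for NFE2L2 and SOD2, 0.70 for NFE2L2 and NQO1 and 0.56 for NQO1 and SOD2. The same omission gave -0.13 for NFE2L2 and PRDX3, 0.36 for TXNRD1 and PRDX3 and -0.62 for SOD2 and TXN2, and it turned NFE2L2 with GPX1, GPX4 and TXN2 from -0.61, -0.76 and -0.63 to 0.41, 0.29 and 0.21. These are descriptions over 10 libraries, and over all 45 pairs of members the median r was -0.086.

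GPX1, GPX4 and TXN2 had the highest GC contents among the members, 64.2%, 62.5% and 56.2% of the longest transcript. SOD1 had 53.7%, NQO1 46.0%, NFE2L2 45.6%, CAT 45.2%, TXNRD1 44.8%, PRDX3 43.1% and SOD2 41.7%. For SOD1, PRDX3 and GPX4 the longest transcript has 1746, 2277 and 1184 bases. Their longest basic coding transcripts have 966, 1591 and 1002 bases, so these GC contents are not those of a basic coding transcript. Libraries also differed by GC content over all genes. In VENins line 5 the median of the 4078 tested genes with the highest GC content, relative to the VENins mean, stood 0.31 log2 units above that of the 4078 with the lowest. In VENsens line 2 the same difference, relative to the VENsens mean, was -0.15. This difference per library had an r of 0.92 with GPX1, 0.93 with GPX4 and 0.92 with TXN2, and of -0.80 with NFE2L2, -0.78 with SOD2 and -0.54 with NQO1 (n = 10 libraries). It was -0.49 with PRDX3 and -0.46 with TXNRD1, 0.16 with SOD1, and 0.26 with CAT, so that members of similar GC content differed in r.

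When the dependence of each library on the length and GC content of transcripts was removed, r was 0.11 for GPX1 and TXN2, 0.29 for GPX4 and TXN2 and -0.24 for GPX1 and GPX4. For NFE2L2 with SOD2 and with NQO1 it was 0.75 and 0.76, and for NQO1 and SOD2 0.82. GPX1 then had r of 0.79 with SOD2, 0.74 with NQO1 and 0.74 with TXNRD1, which had been -0.55, -0.26 and -0.23. The log2 fold changes of VENins against VENsens lines with this dependence removed were 0.26 for NQO1, 0.16 for SOD2, 0.15 for SOD1, 0.09 for GPX4, 0.07 for PRDX3, 0.05 for NFE2L2, 0.037 for GPX1, 0.026 for TXN2, 0.0066 for CAT and -0.0082 for TXNRD1. Those of GPX1, TXN2, CAT and TXNRD1 were thereby nearer to 0 and that of SOD2 farther from it by more than 1.5 times. The values of SOD2 with this dependence removed, both its log2 fold change and its r with other members, rest on its transcript of 14266 bases. That transcript is atypical of the gene. The values of SOD1, PRDX3 and GPX4 rest on transcripts longer than their longest basic coding ones. The part of RNA quality or library preparation in these differences between libraries was not tested.

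**Figure D4:**
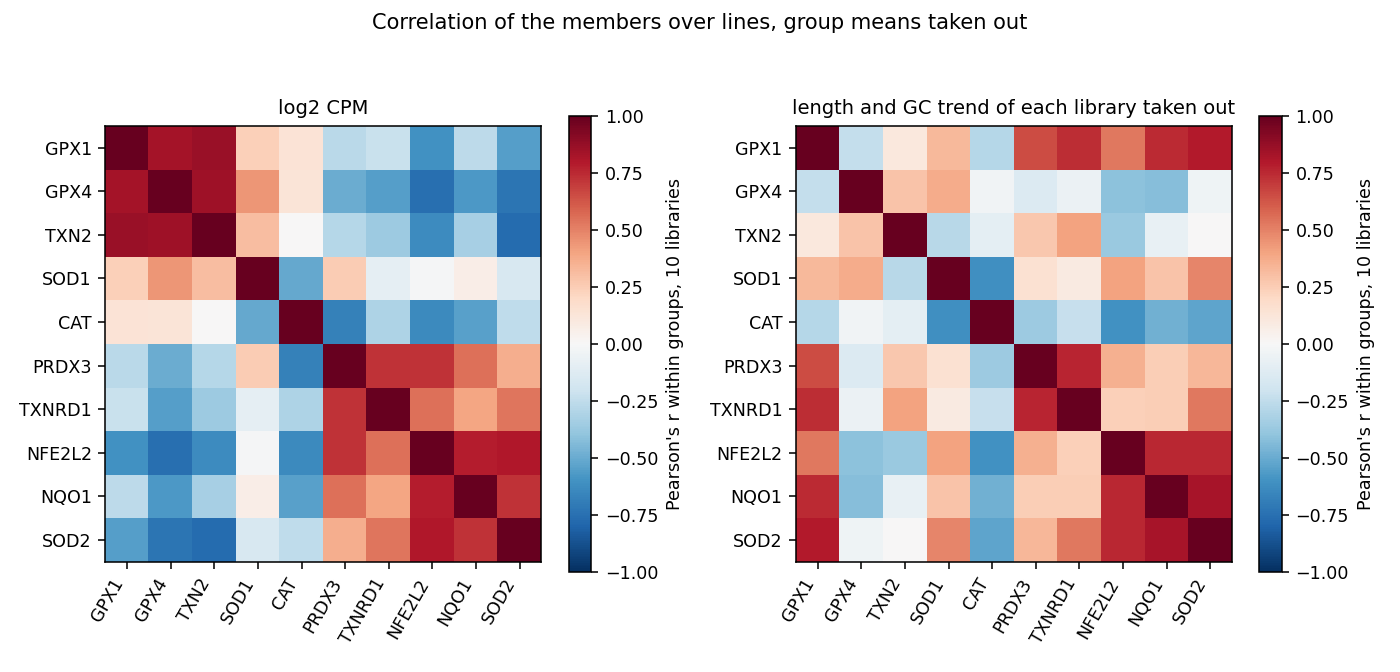
Pearson's r between members over the 10 libraries with the group means taken out, for log2 CPM (left) and with the dependence of each library on length and GC content removed (right). The block of GPX1, GPX4 and TXN2 at 0.83 to 0.86 is absent on the right, and the block of NFE2L2, NQO1 and SOD2 is at 0.75 to 0.82. On the right, the values of SOD2 rest on the length and GC content of its atypical transcript of 14266 bases.

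The genes whose log2 CPM followed a member most closely over the 10 libraries, with the groups together, were the highest of 8799 or 8800 protein-coding genes with a mean of at least 10 CPM, so that high values are found by the search itself. For SOD1 they were ISCU (r = 0.99, and 0.95 with the group means taken out), PSMB7 (0.98 and 0.93) and HINT1 (0.98 and 0.95). ISCU is the scaffold of iron-sulfur cluster assembly and PSMB7 is a proteasome subunit. For NFE2L2 they were ZNF480 (r = 0.97 and 0.97), ACADM (0.96 and 0.96) and NIPSNAP3A (0.95 and 0.96). For NQO1 they were CALM2 (r = 0.98 and 0.95), CDK1 (0.96 and 0.93) and BUB3 (0.95 and 0.88). None of these values was corrected for the difference between GC-rich and GC-poor genes in each library. That difference had an r of -0.80 with NFE2L2, -0.54 with NQO1 and 0.16 with SOD1, and its part in these likenesses was not tested.

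The wider pathway was described by 9 lists with 118 further genes that could be matched, 101 of which were tested. None of the 101 passed the adjusted threshold in edgeR's quasi-likelihood test, and 20 had an unadjusted p under 0.05, with 13 estimates above and 7 below 0. Over all 16756 genes the share under 0.05 was 16.2%. Groups without overlap were found for 4.66% of all tested genes. The pathway genes named below for such groups were picked for the smallest p of their lists. DESeq2 called 2 of the 101 when the line number was included, where it called 217 of all genes, and 7 when it was left out, where it called 739. The median log2 fold change was 0.03, with 59 genes above and 42 below 0.

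Among 10 NRF2 regulators, 3 had a log2 fold change above and 7 below 0, with a median of -0.09. RBX1, the RING subunit of the ligase that marks NRF2 for degradation, had 33.8 ± 1.82 CPM (SD, n = 5) in VENsens lines and 39.0 ± 1.67 CPM in VENins lines, and the groups did not overlap (log2 fold change 0.20 ± 0.06 SE, adjusted p = 0.132, edgeR's quasi-likelihood test). NFE2L1, a relative of NRF2 that controls proteasome genes, had 149 ± 10.3 and 132 ± 10.4 CPM, with a log2 fold change of -0.18 ± 0.06 (SE; adjusted p = 0.183, edgeR). KEAP1 was the most abundant gene of the list per kilobase, at 36.4 ± 1.67 CPM per kilobase in VENsens and 37.5 ± 3.08 in VENins lines.

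Of 24 NRF2 target genes other than the members, 18 were tested, 12 above and 6 below 0 with a median of 0.03. SLC7A11, the cystine importer that feeds glutathione synthesis, had 66.9 ± 6.99 CPM in VENsens lines against 58.6 ± 1.23 CPM in VENins lines, with no VENins line above the VENsens median, but with the lowest of all 10 values in VENsens line 1, at 56.6 CPM (log2 fold change -0.19 ± 0.07 SE, adjusted p = 0.192, edgeR). With the length and GC trend taken out it was -0.11. AKR1B1, an aldose reductase, had 279 ± 23.6 and 304 ± 11.2 CPM (log2 fold change 0.13 ± 0.06 SE, adjusted p = 0.294, edgeR), and without VENsens line 2 in the model without line number the log2 fold change was 0.07. HMOX1, SRXN1, ME1, AKR1C1 and NMRAL2P were below 1 CPM in every library and MGST1 was listed at 0.

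Peroxiredoxins and sestrins had 8 tested genes, 4 above and 4 below 0. PRDX1 was by far the most abundant, at 1030.1 ± 87.4 CPM per kilobase in VENsens and 1002 ± 111 in VENins lines. SESN1, a p53-induced sestrin, had 66.9, 80.7, 72.1, 76.6 and 76.2 CPM in VENsens lines 1 to 5 and 112, 113, 91.4, 69.5 and 85.6 CPM in VENins lines 1 to 5. VENins line 4 lay inside the VENsens range and the other 4 lines above it (log2 fold change 0.32 ± 0.09 SE, adjusted p = 0.129, edgeR). PRDX4, the peroxiredoxin of the endoplasmic reticulum, had a log2 fold change of 0.12 ± 0.06 (SE; adjusted p = 0.288, edgeR). Of the superoxide partners, CCS, the copper chaperone of SOD1, had 19.1 ± 0.932 CPM in VENsens lines against 18.6 ± 1.23 CPM in VENins lines (log2 fold change -0.04 ± 0.07 SE, adjusted p = 0.857, edgeR). Its log2 fold change ran from -0.08 without the lines numbered 5 to -0.0050 without those numbered 1, and SOD3 was listed at 0.

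The thioredoxin list had 10 tested genes, 7 above and 3 below 0, with a median of 0.11. TXNL1, a thioredoxin-like protein bound to the proteasome, had 77.0 ± 2.19 CPM in VENsens lines against 86.1 ± 4.38 CPM in VENins lines without overlap (log2 fold change 0.16 ± 0.05 SE, adjusted p = 0.175, edgeR). TXNDC17 had a log2 fold change of 0.19 ± 0.08 (SE; adjusted p = 0.252, edgeR), which was 0.11 without the lines numbered 2. TXN, the cytosolic thioredoxin, was the most abundant at 53.1 ± 2.52 CPM per kilobase in VENsens and 57.2 ± 3.60 in VENins lines. MSRB3 was below 1 CPM, and TXNIP and TXNRD3 were listed at 0.

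In the glutathione list, 19 of 26 tested genes were above 0, with a median of 0.07. GLRX5, the mitochondrial glutaredoxin that hands on iron-sulfur clusters, was measured at 112, 102, 118, 109.7 and 114 CPM in VENsens lines 1 to 5 and at 132, 137, 132, 123 and 124 CPM in VENins lines 1 to 5. All VENins lines were above all VENsens lines. For GLRX5 the log2 fold change was 0.22 ± 0.06 (SE; adjusted p = 0.0991, edgeR's quasi-likelihood test), and DESeq2 called GLRX5 whether or not the line number was included. GLRX3, its cytosolic counterpart, had 49.3 ± 1.88 and 57.2 ± 2.97 CPM, also without overlap (log2 fold change 0.21 ± 0.06 SE, adjusted p = 0.123, edgeR). GSTP1 was the most abundant of the list by the length of all exons, at 111 ± 8.76 CPM per kilobase in VENsens and 117 ± 4.95 in VENins lines, while by the longest transcript SLC3A2, named after its value was seen, was above it in VENsens lines, at 139.9 against 127. GPX2, GPX3 and GSTM3 were below 1 CPM and GPX8 was listed at 0.

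NADPH supply had 13 tested genes, 6 above and 7 below 0, with a median of -0.01. The widest difference of all 101 pathway genes was that of ALDH1L2, the mitochondrial formyltetrahydrofolate dehydrogenase, which makes NADPH. It was measured at 41.3, 36.6, 34.7, 32.6 and 38.6 CPM in VENsens lines 1 to 5 and at 9.40, 8.05, 22.8, 41.7 and 11.8 CPM in VENins lines 1 to 5. In 4 of 5 VENins lines it was below every VENsens line, and in VENins line 4 it was above them all. For ALDH1L2 the log2 fold change was -1.19 ± 0.27 (SE; adjusted p = 0.0792, edgeR's quasi-likelihood test), and without the lines numbered 4 it was -1.62 and passed the threshold. ME2, a mitochondrial malic enzyme, had a log2 fold change of 0.09 ± 0.05 (SE; adjusted p = 0.443, edgeR). With the length and GC trend taken out it was 0.16, and the adjusted p over all alternatives ran from 0.0501 to 0.815. IDH2, the most abundant of the list, had 161 ± 10.4 CPM per kilobase in VENsens and 158 ± 14.0 in VENins lines. ALDH1L1 was below 1 CPM.

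Of the 12 genes listed for selenoprotein synthesis and selenium supply, which bear on TXNRD1, GPX1 and GPX4, 7 were above and 5 below 0, with a median of 0.02. SECISBP2L, a paralog of the protein that binds the selenocysteine insertion element, had 66.7 ± 9.12 CPM in VENsens lines against 54.3 ± 4.32 CPM in VENins lines, and the groups did not overlap (log2 fold change -0.29 ± 0.08 SE, adjusted p = 0.106, edgeR). SEPHS1, a selenophosphate synthetase homolog, had 87.2 ± 4.84 and 96.1 ± 2.08 CPM, also without overlap but in the opposite direction (log2 fold change 0.14 ± 0.06 SE, adjusted p = 0.233, edgeR). NCL, nucleolin, was the most abundant by the length of all exons, at 309 ± 8.99 CPM per kilobase in VENsens and 309 ± 11.6 in VENins lines, while by the longest transcript RPL30, also named afterwards, was above it in VENsens lines, at 715 against 530.1.

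Lipid peroxide defense had 13 tested genes, 7 above and 6 below 0, with a median of 0.02. ACSL4, which places polyunsaturated fatty acids into membranes, had 96.5 ± 10.9 CPM in VENsens lines against 83.1 ± 5.28 CPM in VENins lines (log2 fold change -0.21 ± 0.08 SE, adjusted p = 0.193, edgeR). AIFM2, which regenerates reduced coenzyme Q at membranes and is also called FSP1, was low at 4.67 ± 0.570 and 5.61 ± 0.630 CPM (log2 fold change 0.27 ± 0.12 SE, adjusted p = 0.276, edgeR). FTL, the ferritin light chain, was the most abundant at 925 ± 15.01 CPM per kilobase in VENsens and 936 ± 57.5 in VENins lines. ALOX15 and ALOX5 were below 1 CPM and NCOA4 was listed at 0.

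**Figure D5:**
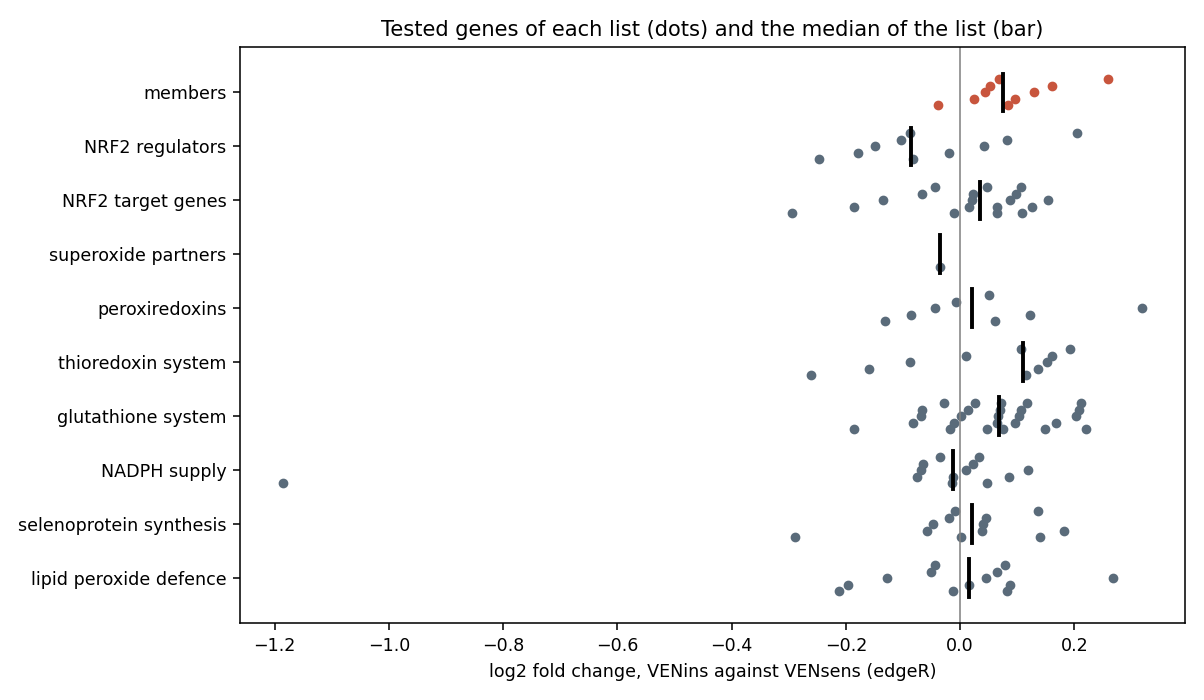
Log2 fold change of VENins against VENsens lines for each tested gene of the members and of the 9 pathway lists (dots), with the median of each list (bar). The medians run from -0.09 for NRF2 regulators to 0.11 for the thioredoxin system, and the dot at -1.19 is ALDH1L2.

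Over all tested genes, the median log2 fold change was lower for longer transcripts. In 4 sets of 4078 genes ordered by their longest transcript it was 0.07, 0.03, -0.01 and -0.06 from the shortest to the longest. GPX1 and GPX4 belong to set 1, TXNRD1 to set 3, SOD2, by its atypical transcript, to set 4 and the other 6 members to set 2. The sets of SOD1, PRDX3 and GPX4 rest on a transcript longer than any of their basic coding ones. With the length and GC trend of each library taken out, the median of the members was 0.06. The part of library preparation in the trend with length was not tested.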

How the data were processed

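RNA from 5 VENsens and 5 VENins lines of RS4;11 was sequenced, with 1 library per line. The values the authors deposited are raw read counts per gene, made on GRCh37; their notes name bcl2fastq 2.20.0.422, Bowtie2 2.3.5.1, SAMtools 1.9 and HTSeq 0.9.1. Libraries held 20631907 to 28323643 gene counts, and a gene such as NQO1 with 111 counts carries an error of roughly its square root.

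The antioxidant genes and the 9 pathway lists were chosen with earlier results of these data known. Genes were named by GENCODE 29. Counts were filtered with filterByExpr (minimum count 10, minimum total 15), scaled with TMM and fitted in edgeR 4.0.16 (R 4.3.3) by a quasi-likelihood model with line number and group, with Benjamini-Hochberg adjustment at 0.05; the code was tested on simulated data. Text names all members and, per list, genes past the threshold, the 2 smallest p, the highest level per kilobase and, by name only, genes below 1 CPM; and for SOD1, NFE2L2 and NQO1 the 3 genes most alike.

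Alternatives were no line number, DESeq2 1.42.0 with and without it, other scaling and filters, a spline (4 degrees of freedom) on length and GC content, pseudogene counts added, other lengths and each pair of lines left out. Chosen after seeing the data were the spline without line number, also for correlations, omission of VENsens line 2 or VENins line 5 alone and median coding length. Figures used matplotlib 3.10.9.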

Additional observations from a re-analysis of the deposited data

Results flagged for a closer look

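In 9 of the 68 groups of 5 lines examined, 1 line lay far from the other 4, with a gap to its nearest neighbor above 0.71 of the whole range of the group. Chance alone gives this in about 1 of 20 groups, and groups of genes that share a library are not independent.

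Among the members these were SOD1 in VENins line 2 (275 CPM, nearest 252; ratio 0.726), GPX1 in VENsens line 2 (199 CPM, nearest 221; ratio 0.892), GPX1 in VENins line 5 (275 CPM, nearest 228; ratio 0.773) and TXN2 in VENins line 5 (127 CPM, nearest 112; ratio 0.743). Without the lines numbered 2 the log2 fold change of SOD1 was 0.12 in place of 0.16, with an adjusted p of 0.594, the highest over its alternatives, whose lowest was 0.0125.

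Among the other pathway genes they were KEAP1 in VENsens line 2 (126 CPM, nearest 139; ratio 0.860), AKR1B1 in VENsens line 2 (238 CPM, nearest 286; ratio 0.852), SEPHS1 in VENsens line 2 (78.8 CPM, nearest 88.3; ratio 0.802), CCS in VENins line 5 (20.8 CPM, nearest 18.6; ratio 0.733) and ME2 in VENsens line 4 (111 CPM, nearest 115; ratio 0.740). Of the 9, 4 were in VENsens line 2 and 3 in VENins line 5, the libraries in which GC-rich genes lay lowest (-0.15) and highest (0.31) against GC-poor genes, each relative to the mean of its own group, so that libraries are not ranked across the groups.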

How the results depend on the processing

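The number of genes called moved from 33 to 149 without the line number in the model, 217 with DESeq2 and the line number, 739 with DESeq2 without it, 664 with no filter on low counts and 142 with the length and GC trend taken out. Added after seeing the data, it was 365 with that trend taken out and no line number, 502 without VENins line 5 and no line number, and 26 without VENsens line 2 and no line number. Omitting the lines numbered 1 to 5 in turn gave 57, 6, 17, 331 and 9, a range of 6 to 331 with fewer samples. Same-numbered lines were not alike (r from -0.10 to 0.03, with 0 of 5 VENsens lines most like their own number), so the number is only a label. It stayed in the main model as a choice made in advance, and the paper describes its own RNA analysis as paired.

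No member was called in 15 of the 16 alternatives that allow a count; DESeq2 without the line number called 1, SOD1 (adjusted p from 0.0125 to 0.594 over its alternatives). The median of the members was 0.06 to 0.09 throughout. Of the other pathway genes, 1 was called without the line number (GLRX5), 2 by DESeq2 with it (GLRX5, SECISBP2L), 7 by DESeq2 without it (also GLRX3, GSTO1, RBX1, SESN1 and TXNL1), 4 with no filter (ALDH1L2, GLRX5, SECISBP2L, SESN1), 1 with the length and GC trend taken out (GLRX3) and 4 with that trend taken out and no line number (GLRX3, GLRX5, SECISBP2L, TXNL1). Without VENins line 5 and no line number 4 were called, namely GLRX3, GLRX5, TXNL1 and NFE2L1. For NFE2L1 the log2 fold change was then -0.22 (adjusted p = 0.0352, edgeR's quasi-likelihood test). With pairs of lines omitted the count was 0 to 2, the 2 being ALDH1L2 and SESN1 without the lines numbered 4.

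Some log2 fold changes near 0 reversed. With a pair of lines omitted, CAT ranged from -0.011 to 0.063 (negative without the lines numbered 3 or 5), PRDX1 from -0.097 to 0.025 (positive without 5), IDH2 from -0.067 to 0.0076 (positive without 1), NCL from -0.016 to 0.037 (positive without 5 alone) and FTL from -0.020 to 0.035 (negative without 2). Without VENins line 5 and no line number, TXN2 was -0.0013 and KEAP1 -0.0085. NCL was -0.0038 with library size alone and -0.011 without VENsens line 2 and no line number; FTL was -0.021 with the length and GC trend taken out, and -0.019 without the line number as well. The cause was not tested.

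CPM per kilobase in VENsens lines depended on the length used. With the longest transcript, GPX1 was 189, SOD1 130.3, PRDX3 118, GPX4 63.7, TXN2 63.1, TXNRD1 62.1, CAT 47.1, NFE2L2 33.0, SOD2 9.31 and NQO1 1.87.

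The data are 5 lines per group from 1 cell line, with RNA from mixed cells, so that they describe transcripts and not protein or enzyme activity. Replicate libraries differed beyond counting (chi-square per degree of freedom 1.93 to 14.3). Depth limits genes with few counts, such as NQO1 with 111 to 168 and AIFM2 with 94 to 144 per library. Genes listed at 0 are not shown to be absent, since identifiers without a GENCODE 29 name hold 0.907% of the counts.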
